A study of Mus musculus with 6 samples.

Results

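The acute phase reactants examined here are 10 genes, Saa1, Saa2, Saa3, Saa4, Orm1, Orm2, Orm3, Lcn2, Hp and Crp. They were taken as every probe set that the platform annotation assigns to exactly 1 gene symbol among these names, which gave 12 of the 45101 probe sets and 10 of 18193 named genes. Saa1 and Saa4 had 2 probe sets each and the other genes 1 each. The values come from livers of Nrf2 knockout mice and of wild-type mice, both of the C57B/SV129 strain and 10 weeks old, with 3 arrays per genotype. Each array held liver RNA pooled from 3 animals, so that the spread described is between pools and that between animals is hidden. The labels present the arrays as biological replicates, name no injury, surgery or treatment, and do not state how the knockout allele was made. Nrf2 (gene Nfe2l2) is a transcription factor of antioxidant and detoxification genes.

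Acute phase proteins are plasma proteins that the liver secretes in larger or smaller amounts after infection, injury or inflammation. Cytokines, among them interleukin-6 and interleukin-1, signal to hepatocytes, where STAT3, NF-kB and C/EBP transcription factors drive the responsive genes. Serum amyloid A travels on high-density lipoprotein, the orosomucoids (Orm, alpha-1-acid glycoproteins) carry lipophilic drugs, lipocalin 2 (Lcn2) binds iron-carrying siderophores, haptoglobin (Hp) captures free haemoglobin, and C-reactive protein (Crp) binds phosphocholine on microbes and damaged cells.

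The deposited values are linear probe set intensities, and the 2% trimmed mean intensity of an array lay between 92.8 and 121 in the knockout and between 92.7 and 132 in the wild type. For testing they were put on a normalized log2 scale (log2 of the intensity plus 5.26, quantile normalized), on which a difference of 1 is 2-fold. The Nfe2l2 probe set 1416543_at had intensities of 5.74, 7.40 and 6.90 in knockout pools, against 696, 598 and 625 in wild-type pools, as the labels have it, while the dim probe set 1457117_at differed by only 0.14 log2 (limma adjusted p = 0.925). All 8 hepatocyte markers were bright, with a summed intensity of 75077 to 80701 in the knockout and 77556 to 83807 in the wild type. The ratio of 3′ to 5′ actin control signal, a sign of RNA integrity, was 1.94 to 2.01 in the knockout and 1.77 to 1.94 in the wild type (exact two-sided permutation p = 0.1, the smallest that 3 against 3 allows). Its part in the results was not tested.

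Wild-type pool 3 stood apart for most of these probe sets, and values without it are given beside the differences, counts and spreads it moves. On the normalized scale it was the highest of the 6 pools at 8 of the 12 probe sets, against 16.2% of all tested probe sets. By intensity it was the highest at 10 of the 12, against 29.4%. At 6 of the 12 it lay more than 2-fold above the mean of the other wild-type pools on the normalized scale, which 1.07% of all tested probe sets did. These were both Saa1 probe sets, the Saa2 probe set, the Saa4 probe set 1419319_at, Orm2 and Lcn2, and these counts were made after the values had been seen. The 5 probe sets of Saa1, Saa2 and Saa4 all had wild-type pool 3 highest. Probe sets of the same gene or of near copies are not separate observations.

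No acute phase reactant passed the test between the genotypes. All 12 passed the filter on dim probe sets, Orm3 through its wild-type pools. By limma 0 of 12 reached an adjusted p of 0.05, where 0.142% of all 22519 tested probe sets did (0.0444% higher and 0.0977% lower in the knockout). Adjusted p-values ran from 0.440 for Orm3 to 0.989 for Orm2. An unadjusted p under 0.05 was reached by 2 of the 12, Orm3 and Orm1, both lower in the knockout, against 7.63% of all tested probe sets in either direction and 3.88% that were lower. On the normalized scale the knockout and wild-type pools did not overlap for the same 2 probe sets, against 13.4% of all in either direction and 6.57% with the knockout lower. At their brightest probe set 7 of the 10 genes were lower in the knockout and 3 higher, with a median of -0.16 log2, beside a median of 0.01 over all 11102 tested genes and 49.2% of all tested probe sets that were lower. Without wild-type pool 3 there were 5 genes lower and 5 higher, with a median of 0.03 log2, and without wild-type pool 1 the median was -0.33.

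**Figure D1:**
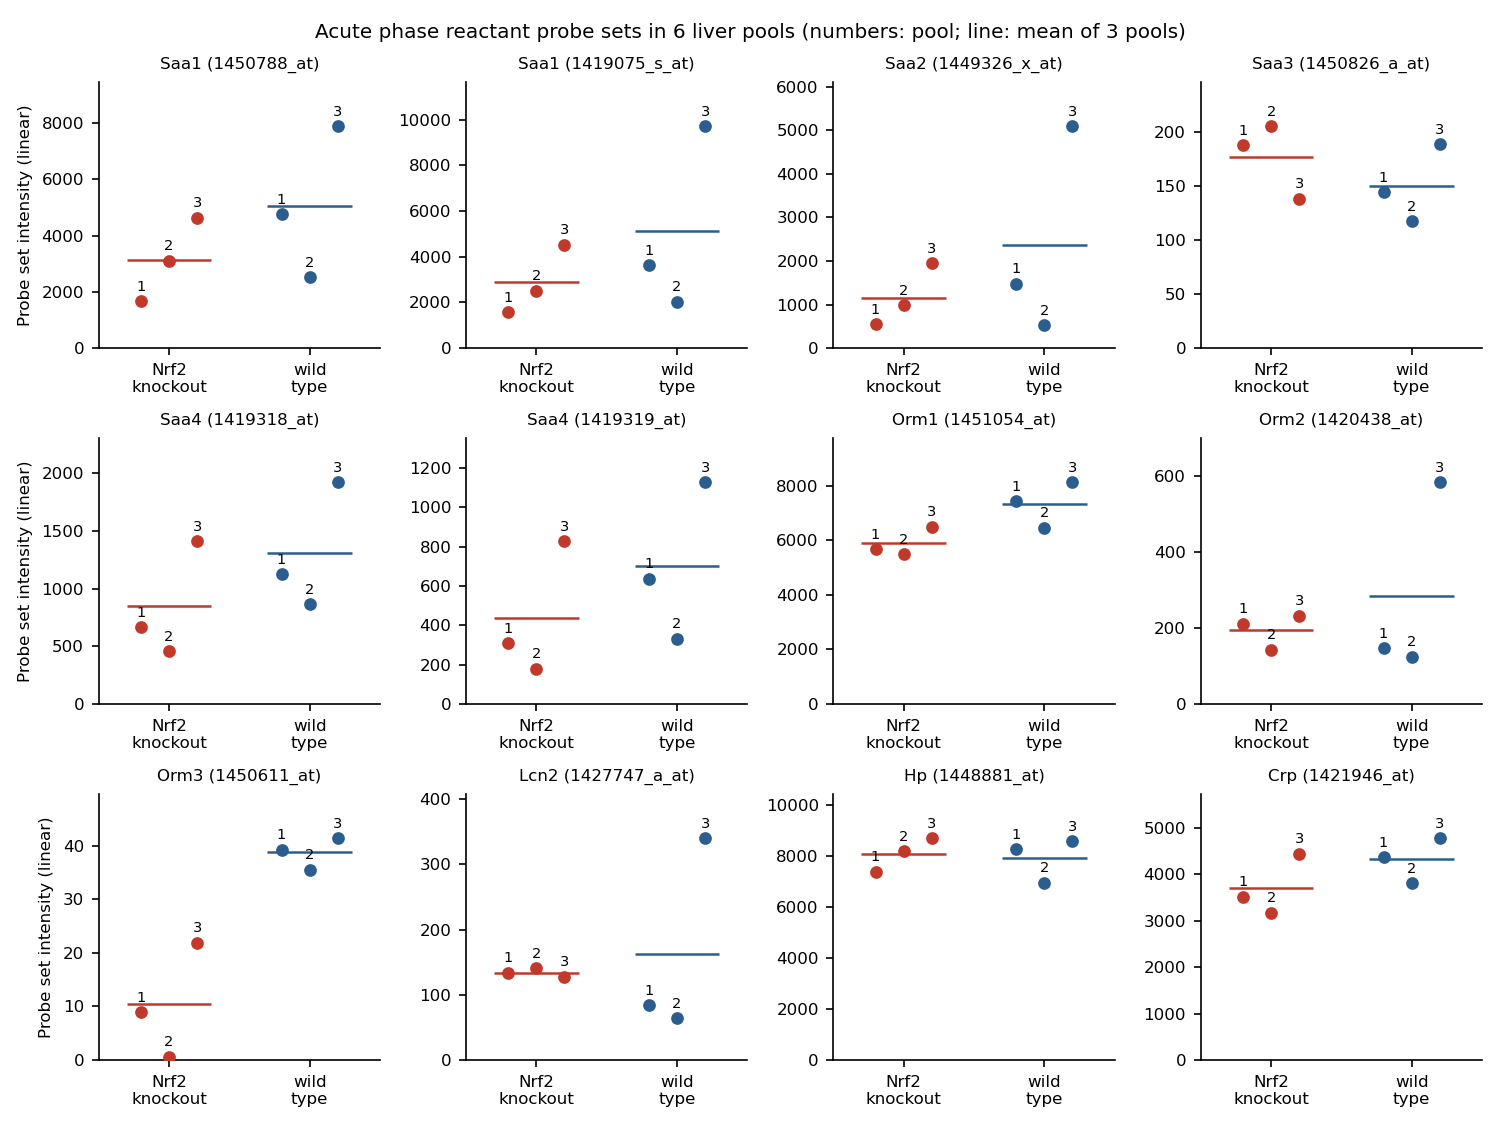
Probe set intensity on a linear axis starting at 0, 1 panel per acute phase reactant probe set, with the 3 Nrf2 knockout pools on the left and the 3 wild-type pools on the right of each panel; numbers give the pool and lines the mean of 3 pools. Wild-type pool 3 is the highest point in 10 of the 12 panels, all but those of Saa3 and Hp. It lies well above the other wild-type points for Saa1, Saa2, Saa4, Orm2 and Lcn2. The Hp, Crp and Orm1 points lie close together and the Orm3 groups are apart at low intensity.

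Saa1 and Saa2 encode the serum amyloid A forms that the mouse liver makes in quantity during inflammation. They are neighbours in the RefSeq gene table, and the upstream sequence of Saa2 is shown because the genes are near copies. Whether their probes bind each other's transcripts was not tested, since only upstream windows, and no transcript or probe sequences, were compared. The 250 bases before each start, from RefSeq (GRCm38.p6), share 238 identical bases in a global alignment, 95.2% of the window. Capitals mark matches to a C/EBP motif, TTNNGNAA, searched on both strands. The Saa2 window is chr7:46751583-46751832 on the plus strand. The Saa1 window, chr7:46742981-46743230 on the minus strand, overlaps the annotated extent of its gene and is not printed.
Saa2: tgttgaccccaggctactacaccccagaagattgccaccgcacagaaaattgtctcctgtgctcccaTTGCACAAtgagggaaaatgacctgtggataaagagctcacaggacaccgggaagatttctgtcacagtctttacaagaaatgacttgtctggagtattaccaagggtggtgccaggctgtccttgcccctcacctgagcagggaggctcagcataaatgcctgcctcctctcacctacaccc
Each window holds the match TTGCACAA, 182 to 175 bases before the start in Saa1 and 183 to 176 bases before it in Saa2, and Saa1 has another, TTTCCCAA. A match is a description of these letters and not a binding site.

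At the brighter Saa1 probe set, 1450788_at, intensities were 1670, 3108 and 4633 in knockout pools, against 4767, 2520 and 7902 in wild-type pools. The groups overlapped, with knockout pool 1 lowest and wild-type pool 3 highest. The log2 difference was -0.58 ± 0.35 (SE, n = 3 per genotype), with a 95% interval from -1.37 to 0.21 and a limma adjusted p of 0.745. Without wild-type pool 3 it was -0.23 and without knockout pool 1 it was -0.28. Without knockout pool 3 it was -0.84 (adjusted p = 0.490). Leaving out wild-type pool 2 gave -0.90, and the groups then did not overlap (adjusted p = 0.880).

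The second probe set assigned to Saa1, 1419075_s_at, had intensities of 1566, 2517 and 4531 in the knockout, against 3614, 2034 and 9728 in the wild type. Its listed accession belongs to Saa2 in the RefSeq gene table, so which of the 2 genes it reads is uncertain. It differed by -0.58 ± 0.48 log2 (95% interval -1.67 to 0.51, adjusted p = 0.821), and by 0.02 without wild-type pool 3. The Saa2 probe set, 1449326_x_at, had 542, 981 and 1950 in knockout pools, against 1480, 524 and 5105 in wild-type pools. Wild-type pool 3 was 5.09-fold above the mean intensity of the other wild-type pools there, against 2.17-fold at the Saa1 probe set 1450788_at. The Saa2 difference of -0.50 ± 0.63 log2 (adjusted p = 0.896) turned to 0.27 without that pool (adjusted p = 0.924).

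Saa4 encodes the serum amyloid A form that is present in plasma without inflammation. Its brighter probe set, 1419318_at, had intensities of 666, 460 and 1408 in knockout pools, against 1126, 864 and 1923 in wild-type pools. The groups overlapped through knockout pool 3, the second highest of the 6. The log2 difference was -0.54 ± 0.32 (SE, n = 3 per genotype; 95% interval -1.27 to 0.19; adjusted p = 0.745). The dimmer probe set, 1419319_at, had 308, 180 and 827 in the knockout and 637, 332 and 1128 in the wild type, with the same order of intensities over the pools. It differed by -0.62 ± 0.46 log2 (adjusted p = 0.803). Without wild-type pool 3 these differences were -0.29 and -0.26, and without knockout pool 3 they were -0.87 and -1.10, with groups that did not overlap and adjusted p-values of 0.384 and 0.429.

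Saa3, which in mice is also expressed by macrophages and adipocytes outside the liver, was the serum amyloid A gene with a positive difference. Its intensities were 188, 206 and 138 in knockout pools, against 144, 117 and 189 in wild-type pools. The groups overlapped, since knockout pool 3 lay below 2 of the wild-type pools. The log2 difference was 0.40 ± 0.23 (95% interval -0.12 to 0.91, adjusted p = 0.739), and 0.51 without wild-type pool 3. Without knockout pool 3 the groups did not overlap on the normalized scale and the difference was 0.66 (adjusted p = 0.279). By intensity they still overlapped, with knockout pool 1 at 188 just below wild-type pool 3 at 189.

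Lcn2 is low in resting liver and is also stored in neutrophil granules. Its intensities were 134, 140 and 128 in knockout pools, against 83.6, 64.4 and 340 in wild-type pools. The knockout pools were close together and lay between the values of the wild-type pools. Over all pools the log2 difference was 0.26 ± 0.46 (95% interval -0.78 to 1.30, adjusted p = 0.935). Without wild-type pool 3, where Lcn2 was 4.60-fold above the mean of the other wild-type pools, the groups did not overlap and the difference was 0.90 (adjusted p = 0.222). Without wild-type pool 1 or pool 2 it was -0.09 or -0.02.

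Markers of the cells that also express Saa3 and Lcn2 were examined on the same arrays, where fewer cells of a type and less RNA per cell cannot be told apart. All 12 Kupffer cell and macrophage markers were tested, 9 higher and 3 lower in the knockout and 0 past the threshold. Their summed intensity was 7165 to 7590 in the knockout and 5808 to 9390 in the wild type, highest in wild-type pool 3. Of 11 neutrophil markers with a probe set, 5 were tested, all higher in the knockout and 0 past the threshold. Their summed intensity was 173 to 234 in the knockout and 120 to 226 in the wild type, of which wild-type pool 3 had the highest. No defining neutrophil marker was listed at 0, but Mpo, Elane, Camp and Ltf were under the filter on dim probe sets, with intensities between 1.18 and 22.7. Of the adipocyte markers 3 had a probe set and 0 passed that filter. Their part in the Saa3 and Lcn2 values was not tested.

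The orosomucoid genes lie in the order Orm1, Orm3, Orm2 on chromosome 4, with an annotated pseudogene between Orm1 and Orm3. The upstream window of Orm2 is shown because Orm2 and Orm3, near copies like Saa1 and Saa2, gave different patterns over the pools. The Orm3 pattern rests on a dim probe set, with intensities of 0.598 to 41.5, against 124 to 584 for Orm2. Whether their probes bind each other's transcripts was not tested. The windows of both genes share 218 identical bases of 250, 87.2%, in the same alignment, with C/EBP matches again in capitals. The Orm2 window is chr4:63362199-63362448 on the plus strand of GRCm38.p6. The Orm3 window, chr4:63355908-63356157 on the same strand, overlaps the annotated extent of its gene and is not printed.
Orm2: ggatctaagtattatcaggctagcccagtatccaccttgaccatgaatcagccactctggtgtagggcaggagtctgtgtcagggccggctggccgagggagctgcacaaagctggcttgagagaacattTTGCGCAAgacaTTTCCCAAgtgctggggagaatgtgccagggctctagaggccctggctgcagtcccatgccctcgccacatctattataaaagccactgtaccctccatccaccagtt
The Orm2 window holds the matches TTGCGCAA and TTTCCCAA, and the Orm3 window holds TTGCACAA, 121 to 114 bases before the start, where the first Orm2 match lies 120 to 113 bases before it.

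Orm1 had intensities of 5680, 5501 and 6496 in knockout pools, against 7432, 6470 and 8144 in wild-type pools. Knockout pool 3 was just above wild-type pool 2 in intensity, but on the normalized scale all knockout pools lay below all wild-type pools, at 12.65, 12.49 and 12.58 against 12.72, 12.73 and 12.89. The difference was small, -0.21 ± 0.08 log2 (95% interval -0.38 to -0.03; SE, n = 3 per genotype), 1.15-fold lower, and did not pass (unadjusted p = 0.0242, adjusted p = 0.600). With single pools left out the difference was between -0.24 and -0.15.

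Orm2 had intensities of 211, 143 and 232 in the knockout, against 146, 124 and 584 in the wild type. Wild-type pool 3 was far above the other wild-type pools, which were below knockout pools 1 and 3. The difference over all pools was -0.05 ± 0.46 log2 (95% interval -1.09 to 1.00, adjusted p = 0.989). It turned to 0.57 without wild-type pool 3 (adjusted p = 0.694), and to 0.14 without knockout pool 2. Without wild-type pool 3 the groups did not overlap on the normalized scale, where knockout pool 2 was at 7.32 and wild-type pool 2 at 7.26. By intensity they still overlapped, with knockout pool 2 just below wild-type pool 1.

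Orm3 showed the widest separation, at the dimmest of the 12 probe sets. Its intensities were 8.92, 0.598 and 21.9 in knockout pools, against 39.3, 35.5 and 41.5 in wild-type pools. All knockout pools were below all wild-type pools, while wild-type pool 3 did not stand out. The log2 difference was -1.67 ± 0.47 (95% interval -2.74 to -0.60), with an unadjusted p of 0.00651 and an adjusted p of 0.440. It lay between -2.15 and -1.10 when single pools were left out. It was -0.94 with 4 times the pseudocount, so that its size depends on the constant added. The Orm3 probe set passed the filter through its wild-type pools, with a normalized mean of 5.40 against 3.73 in the knockout. With a smaller pseudocount or a stricter filter it was not tested, so its p-values hold only for settings that kept it. The sources used here give no detection limit, so how far the knockout values lie above background is unknown.

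Hp and Crp were bright and nearly level over the pools. Hp had intensities of 7391, 8206 and 8718 in the knockout, against 8265, 6955 and 8595 in the wild type. It differed by 0.12 ± 0.07 log2 (95% interval -0.03 to 0.28, adjusted p = 0.732). Crp, which in mice rises far less in inflammation than it does in humans, had 3512, 3165 and 4437 in the knockout and 4364, 3810 and 4778 in the wild type. Its log2 difference was -0.12 ± 0.10 (95% interval -0.34 to 0.11, adjusted p = 0.821). Groups overlapped for both genes.

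**Figure D2:**
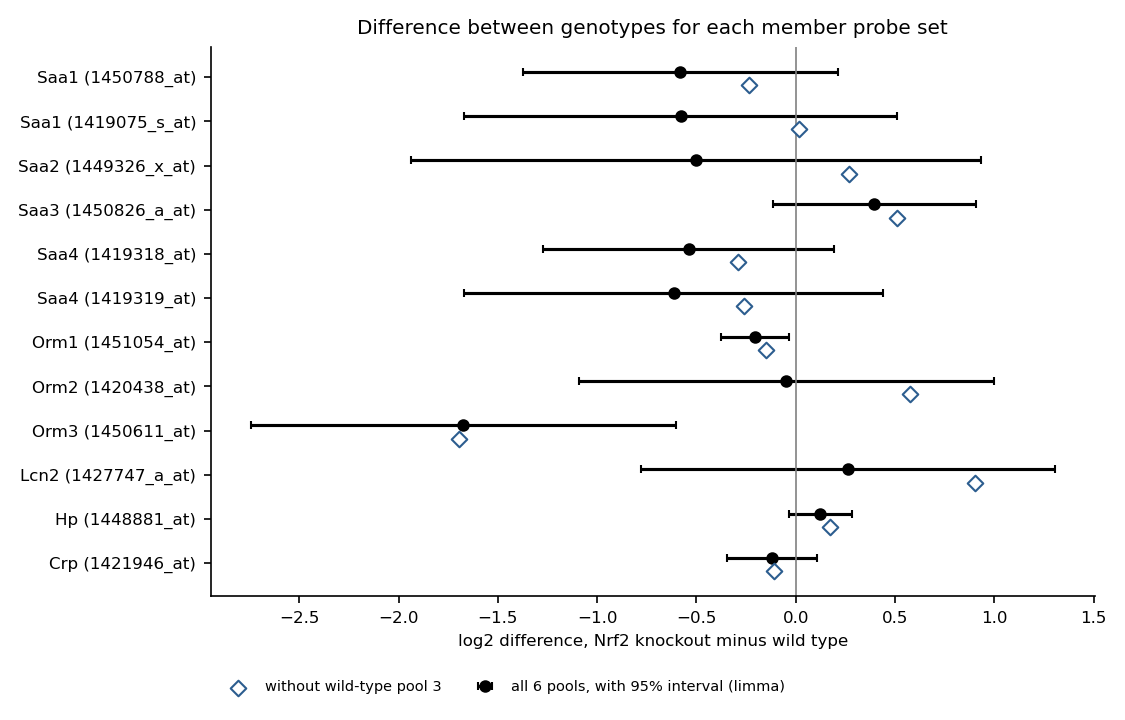
Log2 difference, Nrf2 knockout minus wild type, for each acute phase reactant probe set: black points with 95% intervals from limma over all 6 pools, open diamonds without wild-type pool 3. The intervals of Orm1 and Orm3 lie below 0 before adjustment, and the diamonds of Saa2 at 0.27, Orm2 at 0.57 and 1 Saa1 probe set at 0.02 are on the other side of 0 from their points.

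Spread between pools differed widely among the members. The SD between pools of the same genotype had a median of 0.69 log2 over the 12 probe sets, against 0.20 over all tested probe sets, and 8 of the 12 were among the most variable 10% of tested probe sets. The widest was Saa2 at 1.13 log2, followed by the Saa1 probe set 1419075_s_at at 0.85, the Saa4 probe set 1419319_at at 0.82, Orm2 at 0.80 and Lcn2 at 0.80. Because dim probe sets vary more, each was also set beside tested probe sets within 0.5 log2 of its own mean. There the Saa1, Saa2, Orm2 and Lcn2 SDs were reached or passed by 0.407% to 0.981% of the probe sets, those of Saa4 by 1.29% and 2.88%, and that of Orm3, at 0.77, by 3.29%. Hp at 0.07, Orm1 at 0.09 and Crp at 0.14 were level, and 49.1%, 52.0% and 30.1% of probe sets of like brightness varied at least as much. Saa3, at 0.36, lay between these.

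Part of this spread came with wild-type pool 3. Without it the median SD was 0.44, against 0.19 over all tested probe sets, and 6 of the 12 were among the most variable 10%. The Lcn2 SD was then 0.19 and that of Orm2 0.30, which 44.6% and 11.4% of probe sets of like brightness reached or passed. Both Saa1 probe sets, at 0.51 each, Saa2 at 0.71 and Saa4 at 0.54 and 0.80 were reached or passed by 1.34% to 2.85%. For Orm3 the SD lay almost wholly in the knockout, at 1.07 log2 against 0.18 in the wild type.

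**Figure D3:**
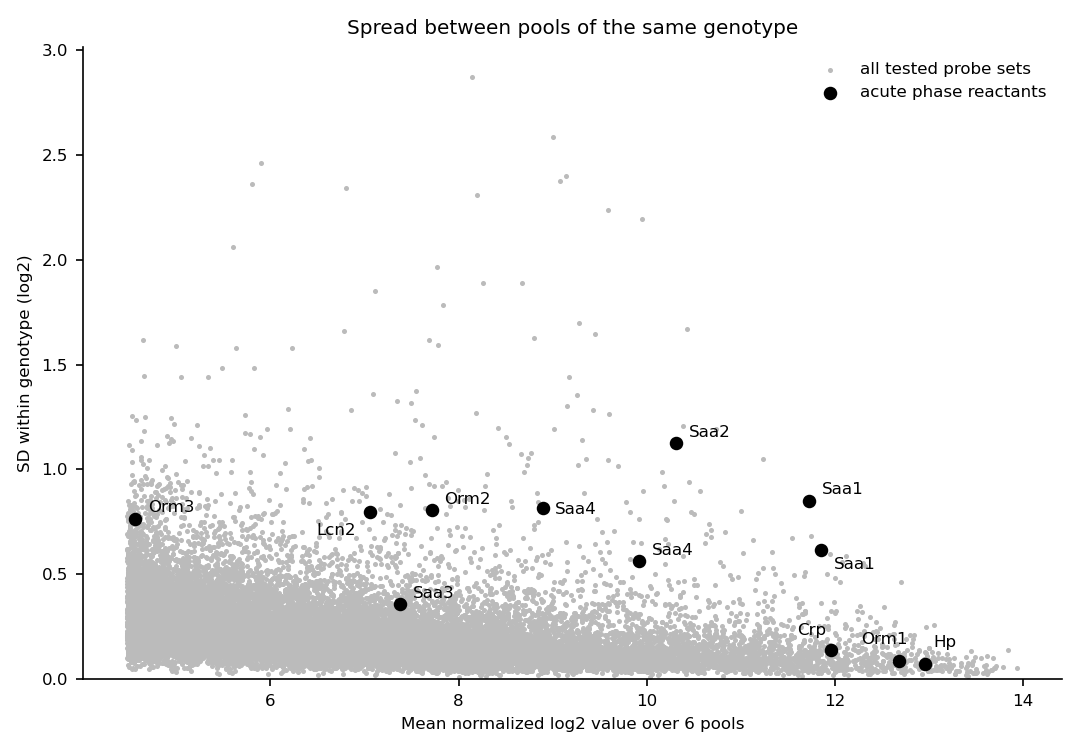
SD between pools of the same genotype (log2, vertical axis from 0) against mean normalized log2 value over 6 pools, for all 22519 tested probe sets in grey and the 12 acute phase reactant probe sets in black. Saa1, Saa2, Saa4, Orm2 and Lcn2 lie above most probe sets of like brightness, while Hp, Orm1 and Crp lie among them.

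Upstream windows of 250 bases were in the RefSeq table for 8 of the 10 genes, Orm1 and Hp having no entry. The Lcn2 window, chr2:32387740-32387989 on the minus strand of GRCm38.p6, is shown as a gene outside both clusters whose transcript was also highest in wild-type pool 3.
Lcn2: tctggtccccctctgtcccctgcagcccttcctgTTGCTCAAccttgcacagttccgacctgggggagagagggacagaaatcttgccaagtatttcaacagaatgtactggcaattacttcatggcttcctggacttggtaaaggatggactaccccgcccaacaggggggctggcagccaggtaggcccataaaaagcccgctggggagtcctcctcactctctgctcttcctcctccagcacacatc
All 8 windows hold at least 1 C/EBP match, against 36.8% of 32851 such windows in the table, in which near copies such as Saa1 and Saa2 count separately. The Saa3 window lies within the annotated extent of its gene and those of Saa1 and Orm3 overlap theirs, which leaves 5 windows that do not overlap, all with a match. A STAT motif, TTCNNNGAA, was in 0 of the 8 windows and 7.02% of all. An NF-kB motif was in 0 and 3.90%, and the antioxidant response element core, TGACNNNGC, in 0 and 10.2%. These counts say only which letters occur in these windows.

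Other acute phase proteins of the liver did not pass either. Of 31 listed genes, 27 were tested, 21 higher and 6 lower in the knockout, the median being 0.09 log2, and 0 passed by limma, while 6 higher and 1 lower had an unadjusted p under 0.05, against 8.23% of all tested genes. Agt, which encodes angiotensinogen, had intensities of 3484, 4202 and 4567 in the knockout, against 3796, 2726 and 3728 in the wild type, a normalized log2 difference of 0.38 ± 0.07 (adjusted p = 0.135). Il1rn, an antagonist of the interleukin-1 receptor, had 36.5, 55.4 and 44.5 in the knockout against 11.5, 20.2 and 35.7 in the wild type, a difference of 1.05 ± 0.33 (adjusted p = 0.530). The metallothionein genes Mt1 and Mt2, whose products bind zinc and which respond to interleukin-6, were at 2.67 ± 0.67 (adjusted p = 0.376) and 2.56 ± 0.89 (adjusted p = 0.570). Mt1 had 339, 2208 and 2516 in the knockout, against 219, 95.6 and 447 in the wild type, with knockout pool 1 well below the other knockout pools. It passed without knockout pool 1 (3.50, adjusted p = 0.0497). The fibrinogen genes Fga, Fgb and Fgg and the haem carrier gene Hpx differed by between 0.04 and 0.09 log2.

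Negative acute phase proteins, whose plasma levels drop in inflammation, gave no call either. Of 14 listed genes 13 were tested, 9 higher and 4 lower, the median being 0.03 log2 and 0 past the threshold by limma, 2 having an unadjusted p under 0.05, against 8.23% of all tested genes. Those were Serpina6, the corticosteroid-binding globulin gene, at 0.52 ± 0.14 log2 (adjusted p = 0.423) and the apolipoprotein gene Apom at 0.19 ± 0.07 (adjusted p = 0.600). Itih2, an inter-alpha-trypsin inhibitor heavy chain gene, was at 0.16 ± 0.08 and Fetub, which encodes the protease inhibitor fetuin B, at -0.19 ± 0.11. Albumin (Alb) and transthyretin (Ttr) differed by -0.0048 and -0.0057 log2.

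Of 30 cytokine, receptor and signalling genes of the response, 23 were tested, 15 higher and 8 lower, the median being 0.12 log2. By limma 0 passed, 2 having an unadjusted p under 0.05, beside the same 8.23% of all tested genes. The cytokine genes Il6, Tnf, Osm and Lif were under the filter. Il1b, which encodes interleukin-1 beta, had intensities of 136, 127 and 199 in the knockout, against 98.8, 73.6 and 109 in the wild type. Its groups did not overlap, and the difference was 0.81 ± 0.14 log2 (adjusted p = 0.124). The oncostatin M receptor gene Osmr was at 0.49 ± 0.20, the interleukin-6 receptor genes Il6ra and Il6st at 0.43 ± 0.20 and 0.44 ± 0.27, and Stat3 at 0.31 ± 0.14, with adjusted p-values from 0.618 to 0.745. The feedback inhibitor gene Socs3 was at -0.06 ± 0.31. Stat3 and Socs3 each had 2 of 3 tested probe sets with the same sign as the brightest. The signalling inhibitor gene Cish, chosen after its values were seen, passed without knockout pool 3 (-0.96, adjusted p = 0.0483), against -0.29 with all pools.

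Of 23 transcription factor genes 21 were tested, 12 higher and 9 lower, the median being 0.02 log2 and 0 past the threshold by limma, while 1 higher and 1 lower had an unadjusted p under 0.05, beside that same share of all genes. Cebpb, a C/EBP factor that drives acute phase genes, was lower, with intensities of 512, 340 and 1089 in the knockout, against 1332, 961 and 2130 in the wild type. On the normalized scale its groups did not overlap, and the difference was -1.11 ± 0.33 log2 (adjusted p = 0.487), with the second tested probe set also lower. Cebpd, another C/EBP factor, had 54.8, 66.6 and 154 in the knockout and 67.6, 57.6 and 184 in the wild type, a difference of 0.01 ± 0.40. The hepatocyte factor gene Foxa3 was at 0.38 ± 0.15, the NF-kB subunit gene Relb at 0.43 ± 0.26 and the NF-kB regulator gene Nfkbiz at 0.20 ± 0.13, the last with 2 of 3 tested probe sets of the same sign.

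**Figure D4:**
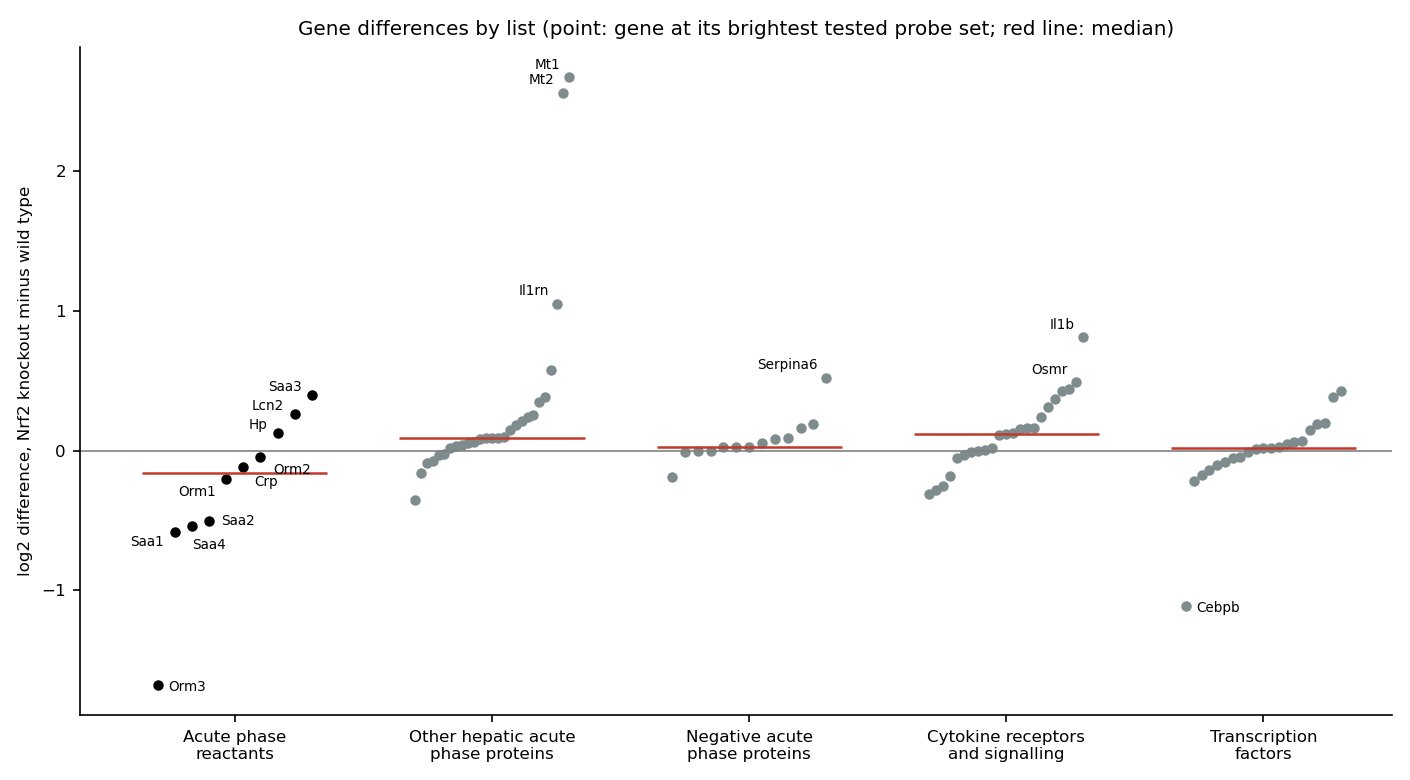
Log2 difference, Nrf2 knockout minus wild type, of each tested gene at its brightest probe set, for the 10 acute phase reactants in black and 4 related gene lists in grey, with red lines at the list medians. Medians run from -0.16 for the acute phase reactants to 0.12 for cytokine receptors and signalling; Orm3 at -1.67 and Cebpb at -1.11 are the lowest points and Mt1 at 2.67 and Mt2 at 2.56 the highest.

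Genes with a pattern over the 6 arrays most like the mean of the 10 acute phase reactants were found by Pearson correlation among 11092 other genes. They were Lman2, a cargo lectin of the secretory pathway, with r = 0.988, Tmem126b with r = 0.986, Slc29a4 with r = 0.982, Zfp219 with r = 0.980 and Ints8 with r = 0.975. Without wild-type pool 3 these correlations were between 0.909 and 0.969. The genotypes differed by -0.05 log2 for Lman2, and adjusted p-values of the 5 genes ran from 0.829 to 0.929. The best of so many genes over 6 arrays will correlate strongly, so these values only describe the arrays.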

How the data were processed

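Per the file headers and labels, the deposited table holds linear probe set intensity values of 6 one-channel Affymetrix arrays, 3 Nrf2 knockout and 3 wild-type pools. GCOS 1.4 appears among the tools per the submitters' processing notes, but its signal algorithm and scaling are not stated in those sources, and no detection call was used. Gene names came from the platform annotation and were updated through Entrez identifiers to a mouse gene table of assembly GRCm38.p6. A pseudocount of 5.26, equal to the 25th percentile of the table, was added to each intensity before the log2 step and quantile normalization; a fold change on this scale understates changes of dim probe sets. After leaving out 64 control probe sets, the 22519 whose mean reached the median were tested with limma 3.58.1 in R 4.3.3 (lmFit, eBayes with intensity trend), adjusting p by Benjamini-Hochberg over the whole set at a threshold of 0.05. A gene took its brightest tested probe set. Whether pools share animals is not stated, so a p-value reflects only how far 3 pools per genotype differ, and their number limits the precision.

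On simulated data with the variances of these 22519 probe sets, 8.36%, 45.1% and 84.2% of log2 changes of 0.5, 1 and 2 were recovered. The changed probe sets were drawn at random from all tested ones, whose median SD was 0.20 log2, against 0.69 for the members. These shares therefore do not apply to members with a wider spread. Named genes were Nfe2l2, all members, Il6ra, Il6st, Stat3, Socs3, Cebpb, Cebpd, up to 4 genes with the smallest p in each of 4 pathway lists, and the 5 most like the members in pattern; others were chosen after their values were seen. Members and lists were chosen with earlier results of these data known. Alternatives were median centring, pseudocounts of 1.31 and 21.0, a filter dropped or raised to the 70th percentile, eBayes without the trend, weighted arrays, a replicate block, averaging probe sets per gene, and each pool left out after normalization. Leaving out pools for the pathway lists and for the members' spread and direction counts, testing the lists with no filter or after median centring, and counts by intensity were added after seeing the data.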

Additional observations from a re-analysis of the deposited data

How the results depend on the processing

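The count of acute phase reactant probe sets past the threshold stayed at 0 in each of the 14 alternatives run, with a lowest adjusted p of 0.141 by limma, while their median difference of -0.16 ran from -0.33 without wild-type pool 1 to 0.03, a change of sign, without wild-type pool 3. Of 148 gene results under alternatives, 142 kept direction and side of the threshold, and 6 reversed. Changing the filter, leaving out the trend and adding the replicate block cannot move a gene's log2 difference. Averaging probe sets cannot move it for a gene with a single probe set. Agreement in direction under these settings was fixed in advance, so the share that agreed is no measure of robustness. Saa2 was between -1.14 and 0.27 (without wild-type pool 3) when single pools were left out. Orm2 was at 0.22 with array weights and between -0.43 and 0.57 over the same omissions, and Lcn2 between -0.088 and 0.90. Non-overlapping probe sets numbered 2, but 1 with a pseudocount of 1.31 and 1 with the filter at the 70th percentile. In both of these settings Orm3 fell under the filter. When pools were left out the number was 2 to 5, with 5 without knockout pool 3 or wild-type pool 3. Over all probe sets 32 passed, against 20 with no filter, 19 with the stricter filter, 18 without the intensity trend, 41 with median centring, 40 with array weights and 18 to 32 when pools were left out, with 21 when knockout pool 2 was dropped and 18 when wild-type pool 2 was. The cause was not tested. With the replicate number as a block the counts were 32 over all probe sets and 0 among acute phase reactants. Of the 32, 9 were higher in the knockout, against 10 in the main fit, so the called sets were not identical. The lowest adjusted p of a member with the block was 0.283 by limma, against 0.440 in the main fit. The labels do not pair the pools, so the numbers were not taken as pairs in the main fit. Deviations from the genotype mean correlated by 0.13, 0.05 and 0.25 between pools of the same number. Dim values, as for Orm3, have no stated detection limit.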

Other observations

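On the normalized scale pool 3 was the highest of its genotype, in knockout and wild type alike, at 5 of the 12 acute phase reactant probe sets, namely all those of Saa1, Saa2 and Saa4, against 15.0% of all tested probe sets. By intensity it was so at 10 of the 12, against 29.0% of all. The labels do not say whether pools of the same number share anything. Listed genes with the same pattern included some chosen after their values were seen, such as Socs2, a feedback inhibitor of growth hormone signalling, with intensities of 237, 198 and 788 in the knockout and 171, 194 and 716 in the wild type, and Cebpd. Pck1, the gluconeogenic enzyme gene, had 3267, 3474 and 5330 in the knockout and 2760, 2858 and 6583 in the wild type. On the normalized scale Mt1, Mt2, Socs2, Cebpd and Pck1 were the tested genes of the pathway and marker lists in which wild-type pool 3 lay more than 2-fold above the mean of the other wild-type pools.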
